A study of Mus musculus with 24 samples.

Results

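The mitochondrial respiratory chain and its ATP synthase are built largely from proteins encoded in the nucleus. Their genes were picked by symbol from a deposited table of 39017 genes, and 77 matched: 36 of complex I (all Nduf genes with a letter a, b, c, s or v and a number), 4 of complex II (Sdha to Sdhd), 8 of complex III (Uqcr genes), 12 of complex IV (Cox genes) and 17 of the ATP synthase (all Atp5 genes that are not pseudogenes). The rule that picks them uses symbols and no measured value, although it was written with earlier results of these data known. The tissue was flash-frozen subcutaneous adipose tissue at the 4th mammary gland, taken from mice of the strain C57BL/6. Its total RNA was depleted of ribosomal RNA and sequenced. The 24 libraries formed 6 groups of 4 by diet, either Chow or a diet labelled HFD, and by the position of the fat. Peritumoral fat lay near a breast tumor, contralateral fat lay away from it, and no-tumor fat is labelled as having none. The study describes its mice as lean and obese. The age and sex of the mice, the origin of the tumor, the length of feeding, and whether the 4 libraries of a group came from 4 animals are not stated in the labels. The p-values therefore measure only the spread between these libraries. Whether contralateral and peritumoral libraries came from the same mice is also not stated, and the main tests treat them as unpaired. Library titles carry the letter L for peritumoral fat and R for the other positions, so whatever these letters stand for and the position cannot be told apart.

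Complex I takes electrons from NADH and complex II takes them from succinate; both pass them to ubiquinone. Complex III passes them on to cytochrome c, and complex IV hands them to oxygen. Complexes I, III and IV pump protons, and the ATP synthase lets the protons back in to make ATP. In white fat the chain supplies ATP for the synthesis and storage of triglyceride, and in thermogenic fat it runs uncoupled from ATP synthesis. Ndufa4 carries a complex I name and is counted here under it, although its protein is now known as a subunit of complex IV. Atp5s is related to the ATP synthase and is not one of its structural subunits.

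The promoters of such genes are known to be bound by NRF1 (nuclear respiratory factor 1), by ETS factors such as GABP, and by estrogen-related receptors (ERR). Among the 77 genes 65 had a promoter in the RefSeq table of the build GRCm38.p6, with 70 promoters between them, and the 250 bases before each RefSeq start were searched on both strands. The NRF1 letters (GCGCA, any base, then GCGC) stood in 14 of the 70, or 20%, and in 5.2% of 21263 promoters of protein-coding genes. The ETS letters CCGGAAG stood in 17.1% against 9.0%, the ERR letters AAGGTCA in 7.1% against 3.6%, the YY1 letters AAGATGGC in 1.4% against 1.5%, and the TATA letters TATAAA in 8.6% against 11.6%. The searched motifs could overlap each other. Of the 38 genes with a promoter whose diet effect differed between contralateral and no-tumor fat in the test of that difference, 8 had an NRF1 match. Of the other 27 genes with a promoter, 5 had one. Printed here are the promoters of Cox6a1 and Sdhd, which hold both NRF1 and ETS letters, of Atp5e, which holds an ETS match and had the lowest adjusted p in that test, and of Cox7a1, which holds none of the letters and passed no test. They lie at chr5:115348959-115349208 (minus strand), chr9:50603850-50604099 (minus), chr2:174464102-174464351 (minus) and chr7:30183921-30184170 (plus). Capitals mark NRF1 letters and ETS letters (written CTTCCGG where they lie on the other strand), and each run reads 5′ to 3′ along the gene and ends at the base before the RefSeq start.
Cox6a1: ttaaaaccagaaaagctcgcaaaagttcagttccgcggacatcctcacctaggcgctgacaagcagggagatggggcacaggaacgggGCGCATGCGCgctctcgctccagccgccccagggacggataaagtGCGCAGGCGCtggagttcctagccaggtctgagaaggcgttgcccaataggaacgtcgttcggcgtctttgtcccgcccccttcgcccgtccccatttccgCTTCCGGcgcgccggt
Sdhd: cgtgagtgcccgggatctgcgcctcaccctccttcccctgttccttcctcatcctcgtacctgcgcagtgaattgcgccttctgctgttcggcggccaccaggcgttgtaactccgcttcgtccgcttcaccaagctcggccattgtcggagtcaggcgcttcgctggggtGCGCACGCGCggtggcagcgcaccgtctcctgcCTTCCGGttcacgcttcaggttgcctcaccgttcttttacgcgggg
Atp5e: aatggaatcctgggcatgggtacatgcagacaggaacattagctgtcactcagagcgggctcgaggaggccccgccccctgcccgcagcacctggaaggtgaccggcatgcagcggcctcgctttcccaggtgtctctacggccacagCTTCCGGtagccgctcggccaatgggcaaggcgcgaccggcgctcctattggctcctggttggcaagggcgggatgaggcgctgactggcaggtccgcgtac
Cox7a1: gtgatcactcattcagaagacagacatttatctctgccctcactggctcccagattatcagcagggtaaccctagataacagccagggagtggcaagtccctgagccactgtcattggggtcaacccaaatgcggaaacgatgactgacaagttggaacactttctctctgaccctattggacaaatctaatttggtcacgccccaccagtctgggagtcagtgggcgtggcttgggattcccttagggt
A match describes the letters in this window and does not show that a factor binds there.

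The libraries held 9.13 to 18.2 M counts, and the 77 genes took 0.3854 to 0.6001% of them. Levels are given in CPM, counts scaled to a common library size with TMM factors over all 24 libraries. Adiponectin (Adipoq), the adipocyte hormone, ran from 958.7 to 2772 CPM, and every adipocyte marker of the list was detected in every library, while Ucp1, the uncoupling protein of thermogenic fat, had group means of 0.1194 to 0.709 CPM. The summed level of 12 mature adipocyte markers ran from 12258 to 28789 CPM. Skeletal muscle RNA was uneven: the sum of 13 muscle markers exceeded 1000 CPM in 5 libraries, namely Chow contralateral replicates 1, 2 and 4 (5090, 3592 and 2879 CPM), Chow peritumoral replicate 2 (2797 CPM) and Chow no tumor replicate 3 (1125 CPM), and lay at 442 CPM or below in the other 19. Its defining gene Ckm had a mean of 107.2 CPM in Chow contralateral fat and 0.01546 CPM in HFD contralateral fat. Counts that rest on these libraries are given with and without them. Chow contralateral replicate 2 also had 11.367% of its counts in the gene Gm42418, against at most 0.9% in any other library. With library sizes without mitochondrial genome genes and Gm42418, 66 of the 66 calls of named genes held. The libraries that stood apart in the respiratory chain genes themselves were a different pair: the mean over all 77 genes of log2(CPM + 0.5) was 5.62 in Chow no tumor replicate 2, against 5.23 to 5.29 in its group, and 5.26 in HFD peritumoral replicate 1, against 4.94 to 4.998.

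Per kb of exon, complex IV genes had the highest median and ATP synthase genes the lowest, at 60.03 and 24.2 CPM per kb. This length is the exon bases of a gene in the deposited table and can far exceed 1 transcript. It was 1756 bases for Atp5e and 4522 for Ndufb7, whose longest protein-coding transcripts had 421 and 623 bases. For Ndufa1 both were 419. The order of the complexes per length of transcript was not tested. The median was 46.1 for complex III, 40.1 for complex II and 29.3 for complex I. The highest members on this scale were Cox6b1 (239 CPM per kb, mean of the 6 groups) and Cox8a (224), accessory subunits of complex IV, then Cox6a1 (175), and the catalytic beta and alpha subunits of the ATP synthase, Atp5b (162) and Atp5a1 (145). The lowest were Atp5g1 (0.743), Atp5g2 (1.06) and Atp5l (1.36), then Cox7c (2.55) and Ndufb2 (2.60). The c ring of the ATP synthase is made of 1 mature peptide that 3 genes encode, and its counts lay almost wholly in Atp5g3, at 24.2 CPM per kb. Of the Cox7a forms, Cox7a2 (64.7 CPM per kb), the form found in most tissues, and Cox7a2l (55.3) stood above Cox7a1 (5.98), the form of muscle and brown fat.

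Some separate counts are uncertain, because the counter and its strand setting are not given in the sources used here. By the exon positions of the deposited table, 18 of the 77 genes have exons that overlap an exon of another gene. The largest shares were in Atp5o (44% of exon bases), Ndufb6 (39.0%), Cox5a (38.7%) and Ndufa13 (30.2%). The table spreads the exons of Atp5o over chr16:91684398-91931687, whereas GENCODE M21 of the same build has the gene at chr16:91925214-91931687. Its counts therefore cover exons beyond that gene. Start and end were the same in both for 45 of the 77 genes. In GENCODE M21, stretches of 50 transcript bases that also occur in another gene's transcripts made up at least 10% of 26 members. They made up 84.8% of Atp5l, 50.3% of Atp5o and 47.9% of Atp5h. For Atp5o the other genes include a second entry of the same name. Only the longest protein-coding transcript of each gene was searched (4715 bases for Atp5g1), so these shares do not describe the shorter transcripts of a gene. Atp5l was among the lowest members by level, whereas Atp5h reached 27.9 CPM per kb, and Atp5g1, the lowest of all, shared 11.6% of its stretches. The part of shared sequence in these levels was not tested.

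**Figure D1:**
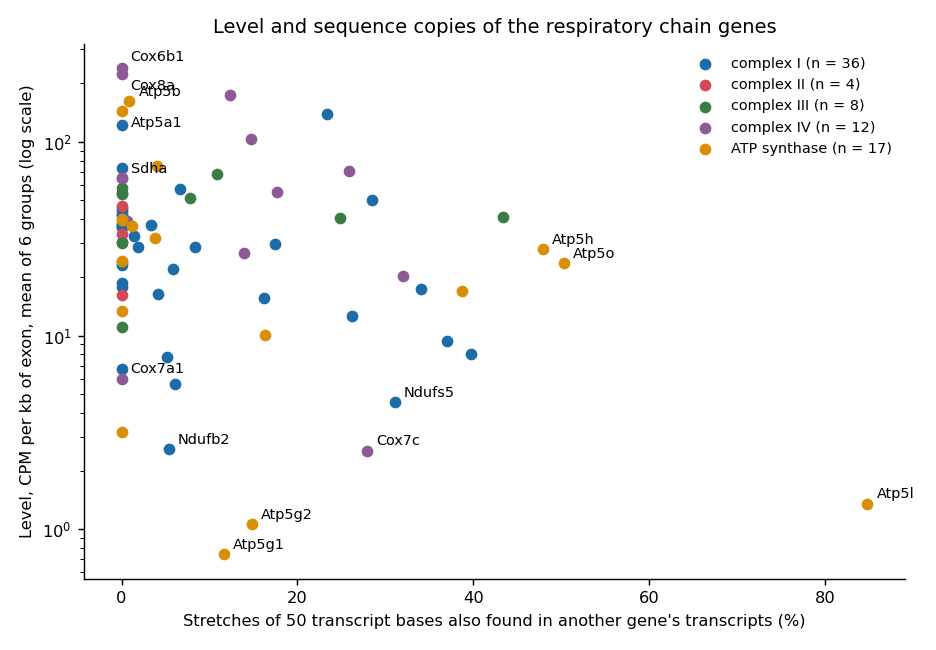
Level of each of the 77 genes in CPM per kb of exon, as the mean of the 6 groups on a log scale, against the percentage of its 50-base stretches that also occur in transcripts of another gene, coloured by complex. Atp5l stands alone at 84.8%, and the low Atp5g1, Atp5g2, Ndufb2 and Cox7c lie at 27.9% or less on that axis. The percentage covers only the longest protein-coding transcript of each gene, so a low value does not show that shorter transcripts lack copies.

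In all 5 complexes the 2 highest mean levels were those of Chow no-tumor and HFD contralateral fat, and HFD no-tumor fat came next (plot of mean levels by complex). Chow no-tumor fat came first with all its libraries; without its replicate 2, HFD contralateral fat came first in complexes I and II, with mean log2 levels of 5.145 against 5.104 and 6.608 against 6.539. The lowest group was Chow peritumoral fat in complexes I and IV and the ATP synthase, and HFD peritumoral fat in complexes II and III. The summed level of the 77 genes was 5583 ± 892 CPM (mean ± SD, n = 4) in Chow no-tumor fat and 5320 ± 123 in HFD contralateral fat; without Chow no tumor replicate 2 the first value was 5143. It was 4996 ± 255 in HFD no-tumor, 4516 ± 191 in Chow contralateral, 4385 ± 470 in HFD peritumoral and 4217 ± 373 CPM in Chow peritumoral fat. The libraries of every pair of neighbours in this order overlapped, whereas those of HFD contralateral fat (5187 to 5473 CPM) all lay above those of Chow contralateral fat (4301 to 4760 CPM). Chow no-tumor fat had the highest mean of the 6 groups in 50 of the 77 genes and HFD contralateral fat in 20, but without Chow no tumor replicate 2 these counts were 31 and 35. Chow peritumoral fat had the lowest in 47 and HFD peritumoral fat in 17. The ranges were narrow: the highest group mean was 1.4 times the lowest in the median gene, from 1.2 times in Atp5j to 2.06 times in Cox5a.

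**Figure D2:**
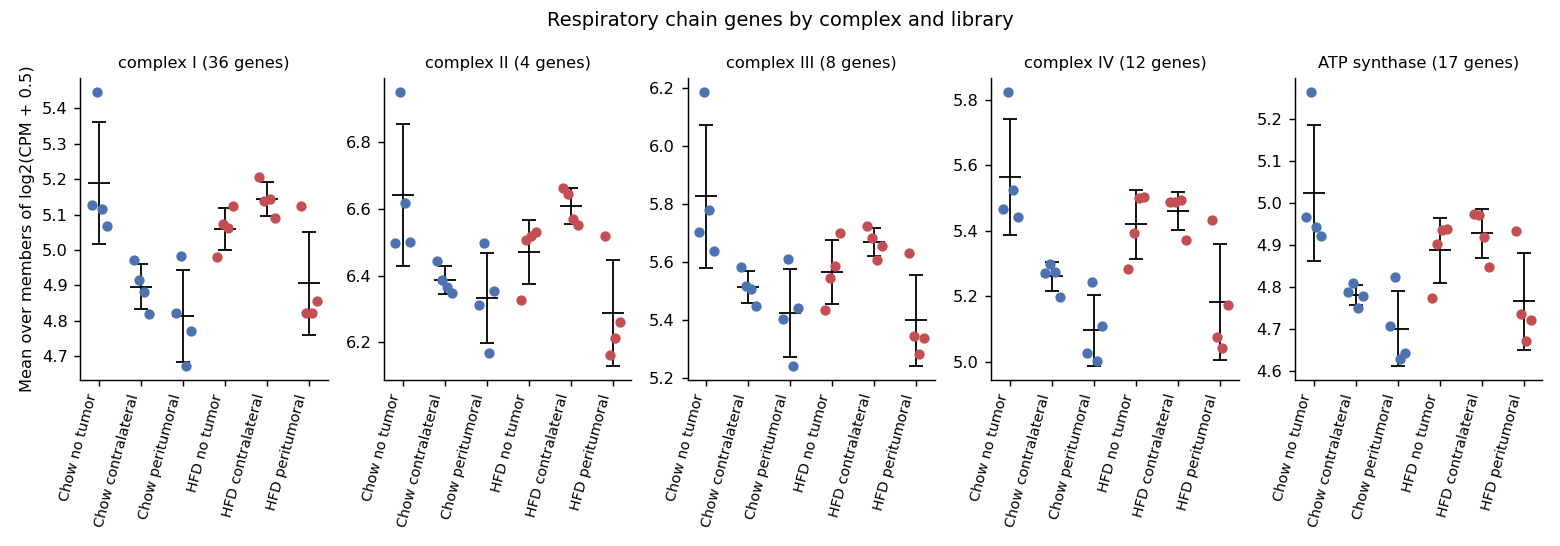
Mean over the genes of each complex of log2(CPM + 0.5), with 1 point per library (blue Chow, red HFD), a bar at the group mean and whiskers of 1 SD, n = 4. Chow no tumor replicate 2 and HFD peritumoral replicate 1 lie above the other 3 libraries of their groups in all 5 panels, and the contralateral libraries of the 2 diets do not overlap in any of them.

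Genes chosen for their roles in each complex show the levels behind these sums. Ndufv1, which binds NADH and flavin in complex I, had 67.7 ± 7.98 CPM without a tumor, 58.8 ± 5.05 contralaterally and 48.8 ± 9.48 peritumorally on Chow, and 64.6 ± 5.79, 69.5 ± 2.37 and 51.5 ± 6.68 at the same positions on HFD. Ndufs1, the largest iron-sulfur subunit, ran from 71.7 ± 7.33 CPM in HFD peritumoral to 91.9 ± 22.7 in Chow no-tumor fat, and passed no test. Cox5a, a nuclear-encoded partner of the catalytic core of complex IV, ran from 9.13 ± 2.19 CPM in Chow peritumoral to 18.8 ± 4.22 in Chow no-tumor fat and also passed none. Atp5a1 ran from 382 ± 35.8 to 514 ± 100.4 CPM between the same 2 groups, and Atp5b from 586 ± 56.4 to 786 ± 147. Of the c ring genes, Atp5g3 ran from 42.8 ± 2.28 to 64.1 ± 14.6 CPM and Atp5g1 from 3.29 ± 0.399 in HFD contralateral to 4.27 ± 0.227 in Chow no-tumor fat. Cox7a1 was low everywhere, with 1.79, 2.34, 4.29 and 3.46 CPM in HFD no-tumor and 2.46, 1.17, 1.03 and 1.75 CPM in HFD peritumoral fat, and these groups overlapped. Atp5g2 had 3 to 11 counts per library and was tested nowhere; Atp5l missed the low-count filter in the comparison of diets in no-tumor fat, so 75 members were tested there and 76 elsewhere.

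Each comparison was tested over all genes with edgeR's quasi-likelihood test, with p-values adjusted by Benjamini and Hochberg over all genes tested and a threshold of 0.05. Of the 77 genes 23 passed in none of the 7 comparisons of 2 groups, 20 in 1, 26 in 2 and 7 in 3. Cox4i1 passed in 5. With both interactions included, 21 genes passed nowhere: Ndufa10, Ndufa12, Ndufb5, Ndufs1, Ndufs3, Ndufs5, Ndufv2, Uqcrc2, Uqcrq, Cox5a, Cox7a1, Cox7c, Atp5c1, Atp5d, Atp5g1, Atp5g2, Atp5j, Atp5k, Atp5l, Atp5mpl and Atp5s. Comparisons that share a group are not independent of each other.

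**Figure D3:**
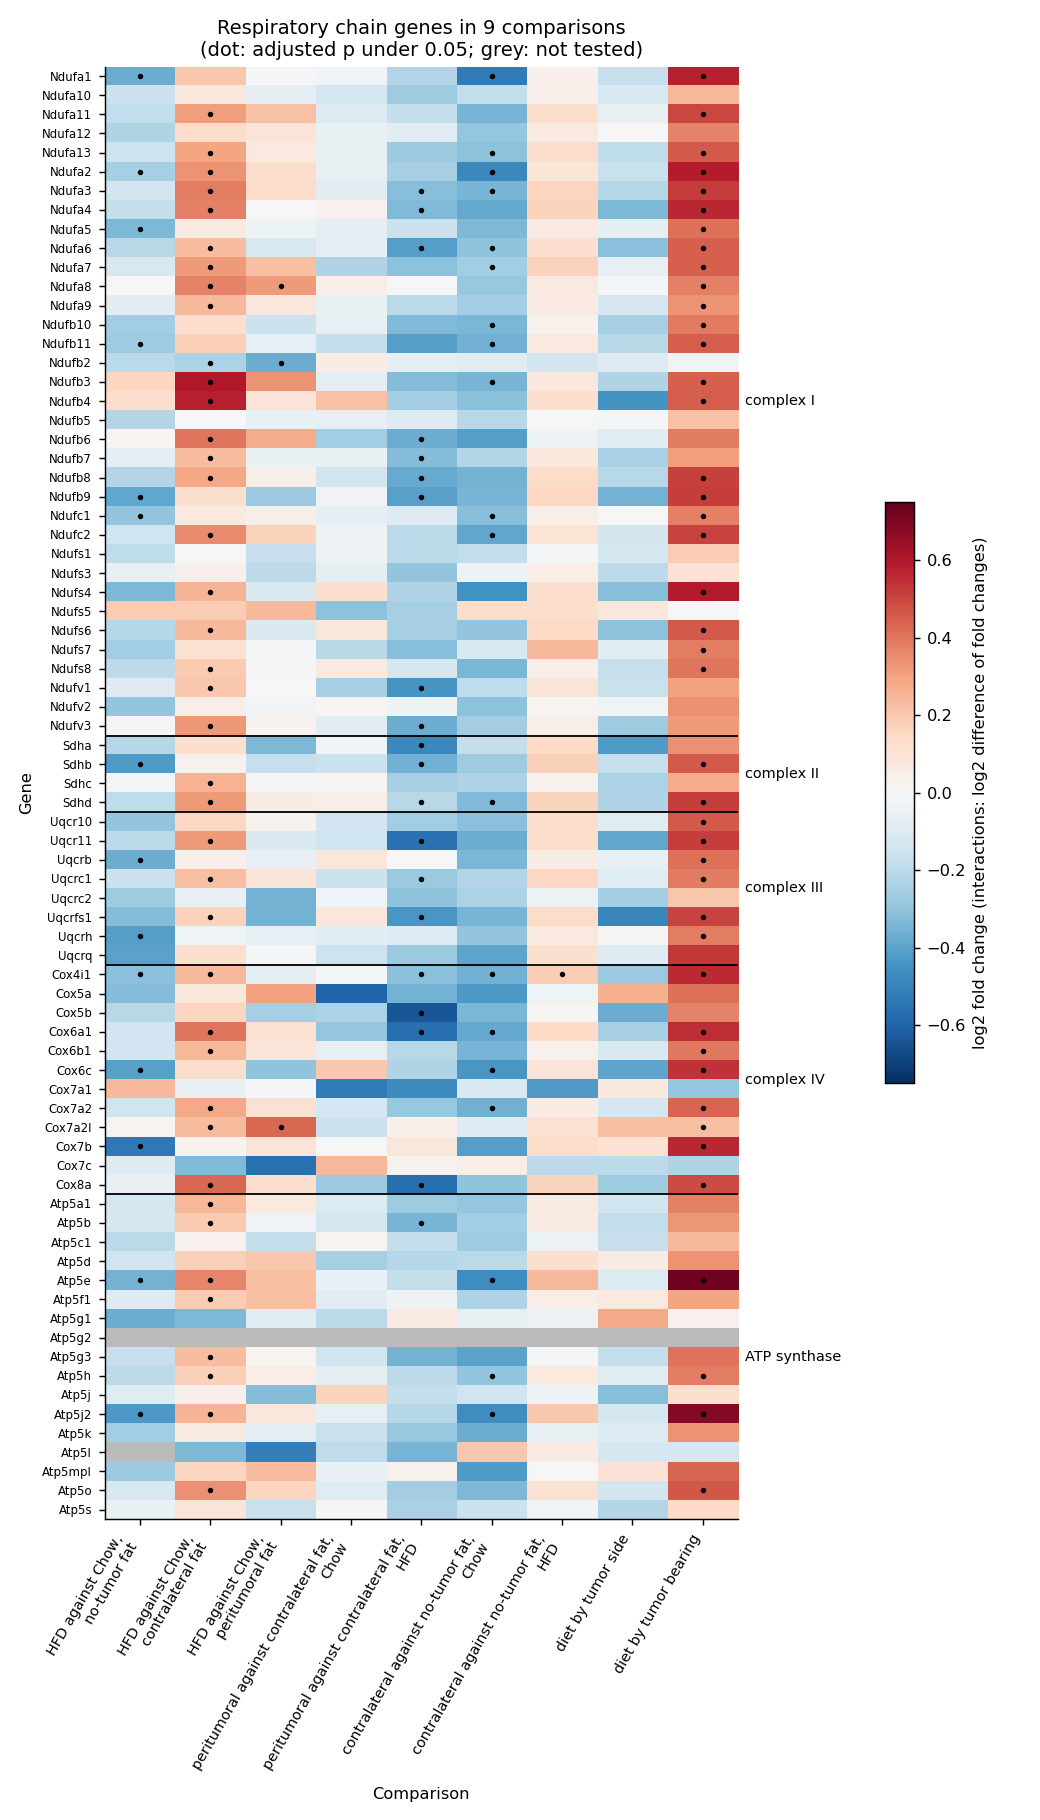
Log2 fold change of 76 of the 77 genes (rows, by complex) in the 7 comparisons of 2 groups, and the log2 difference of fold changes in the 2 interactions (columns); red is higher, blue lower, a dot marks an adjusted p under 0.05 and grey a gene not tested. The column of diet in contralateral fat is mostly red with 40 dots, that of contralateral against no-tumor fat on Chow mostly blue with 19, and in the interaction of diet with tumor bearing every dot is on red.

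Without a tumor, a share of the respiratory chain genes was lower on HFD than on Chow, and none was higher past the threshold. Of 75 genes tested 15 fell and 0 rose, beside 11.3% of all genes that fell and 13.6% that rose (24.9% in either direction). The median log2 fold change was -0.20 over the 75 genes and -0.02 over all genes, and 68 of the 75 lay below 0. Without Chow no tumor replicate 2 the median was -0.095, with 59 below 0 and 16 above. The genes that fell came from every complex: 7 of 36 from complex I, 1 of 4 from complex II, 2 of 8 from complex III, 3 of 12 from complex IV and 2 of 15 from the ATP synthase. In 16 of the 75 genes the libraries of both diets did not overlap, beside 27.5% of all genes.

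Ndufa1, a small membrane subunit needed to assemble complex I, had 28.6, 30, 29.5 and 29.5 CPM on Chow and 22.98, 24.4, 20.9 and 24.5 CPM on HFD. Every HFD library lay below every Chow library, and the log2 fold change was -0.37 ± 0.07 (SE; adjusted p = 0.00214). Sdhb, the iron-sulfur subunit of complex II, had 81.5, 118, 91 and 81.8 CPM on Chow and 65.3, 73.1, 73.4 and 71.2 on HFD. The groups again did not overlap, with Chow replicate 2 far above the others, and the log2 fold change was -0.42 ± 0.11 (adjusted p = 0.0183). Uqcrh, the hinge protein of complex III, fell from 77.6 ± 11.6 to 59.3 ± 1.18 CPM (-0.42 ± 0.09, adjusted p = 0.00484). In complex IV, Cox6c fell from 117 ± 15.8 to 89.9 ± 1.57 CPM (-0.41 ± 0.08, adjusted p = 0.00398). Cox4i1, a regulatory subunit of the same complex at chr8:120668222-120674207 of mm10, fell from 189.8 ± 25.4 to 156 ± 4.02 CPM (-0.31 ± 0.08, adjusted p = 0.0165). Atp5e, the epsilon subunit of the rotating stalk, had 25.8, 31.97, 29.4 and 25.7 CPM on Chow and 22.3, 21.9, 23.6 and 22.3 on HFD (-0.35 ± 0.08, adjusted p = 0.00741). Ndufa5, of the quinone-reducing part of complex I, changed by -0.34 ± 0.09, adjusted p = 0.0157.

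Of the 13 protein genes of the mitochondrial genome 7 were tested and 7 fell, among them mt-Co1 (-0.57 ± 0.10, adjusted p = 0.00125). Of 19 genes of the TCA cycle and pyruvate dehydrogenase 1 rose and 2 fell, and of 47 assembly factors tested 4 rose and 1 fell. Of 23 import and outer membrane genes 1 rose and 5 fell, and of 19 regulators of mitochondrial biogenesis 0 rose and 4 fell. The summed adipocyte markers ran from 15771 to 18736 CPM on Chow and from 22415 to 24200 on HFD, and 5 of 12 rose while 2 fell. Of the 8 endothelial markers 7 rose. Of 10 stromal markers 5 fell, of 9 mammary epithelium markers 4 fell, and 0 rose in either list, while of 6 thermogenic fat markers tested 1 rose and 3 fell. Mitochondrial ribosomal RNA took 29.65 to 34.77% of counts on Chow and 20.54 to 22.01% on HFD. In bulk tissue fewer cells of a type and less RNA per cell cannot be told apart, and the part of other cell types and of the ribosomal RNA share in these changes was not tested. Leaving out HFD no tumor replicate 1 or 2 lowered the count of genes called from 15 to 7 or 8, and the calls of Sdhb (adjusted p = 0.0522) and Cox4i1 (0.0515) were lost without replicate 1 and replicate 2. Without the Chow library rich in muscle markers 15 genes were called.

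In contralateral fat of tumor-bearing mice the diet difference had the other sign. Of 76 genes tested 39 rose on HFD and 1 fell, beside 24.5% of all genes that rose and 24.8% that fell (49.3% in either direction). The total share called, 40 of 76, was near that of all genes, and the split between directions was not: the median was 0.19 over the members and -0.01 over all genes, with 66 of 76 members above 0. Genes that rose made up 20 of 36 in complex I, 2 of 4 in complex II, 3 of 8 in complex III, 6 of 12 in complex IV and 8 of 16 in the ATP synthase. In 44 of the 76 genes the libraries of the 2 diets did not overlap, beside 46.3% of all genes.

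Ndufb3, an accessory subunit of the membrane arm of complex I, had 35.3, 35.7, 35.2 and 33.1 CPM on Chow and 54.4, 53.1, 50.8 and 59.02 on HFD. The lowest HFD library lay well above the highest Chow library, and the log2 fold change was 0.60 ± 0.06 (adjusted p = 1.84e-05). Ndufb4 of the same arm had 7.99, 9.46, 8.98 and 7.86 CPM on Chow and 13.5, 13.4, 13.8 and 12.03 CPM on HFD (0.58 ± 0.09, adjusted p = 0.000429); 37.0% of its 50-base stretches occur in other genes. Ndufa3, Ndufa4 and Ndufc2 rose by 0.38 ± 0.06, adjusted p = 0.000205, by 0.38 ± 0.06, adjusted p = 0.000392, and by 0.35 ± 0.06, adjusted p = 0.000701. At the NADH end, Ndufv1 rose by 0.20 ± 0.07 (adjusted p = 0.0259). Complex I also held the only member called lower, Ndufb2, while 10 of the 76 members lay below 0. Ndufb2 had 14.6, 14.6, 15.99 and 15.5 CPM on Chow and 13.3, 14.5, 12.99 and 12.1 on HFD (-0.24 ± 0.08, adjusted p = 0.0319). DESeq2 did not call it (adjusted p = 0.0581).

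In complex III, Uqcrc1, a core subunit, had 93.6, 92.2, 91.9 and 85.4 CPM on Chow and 108, 112, 103 and 113 on HFD (0.22 ± 0.05, adjusted p = 0.00389). The Rieske iron-sulfur protein Uqcrfs1 had 39.4, 39.6, 37.9 and 37.2 CPM on Chow and 48.6, 44.8, 43.5 and 41.4 CPM on HFD (0.17 ± 0.06, adjusted p = 0.0393). Both rose, with no overlap between the diets. In complex IV, Cox8a had 116, 113, 111 and 103 CPM on Chow and 156, 155, 153 and 149 on HFD (0.43 ± 0.05, adjusted p = 5.05e-05). Cox6a1 had 113, 116, 113 and 102 CPM on Chow and 148, 152, 145 and 157 CPM on HFD (0.40 ± 0.05, adjusted p = 0.000132). Cox4i1 had 154, 151, 146 and 134 CPM on Chow and 179, 179.9, 176 and 177 CPM on HFD (0.24 ± 0.05, adjusted p = 0.00359), with no overlap. Of the Cox7a forms, Cox7a2 rose by 0.28 ± 0.07, adjusted p = 0.0049, and Cox7a2l by 0.24 ± 0.06, adjusted p = 0.00643. In the ATP synthase, Atp5o, which links the head to the outer stalk, rose by 0.34 ± 0.05, adjusted p = 0.000368, with the overlap with other genes noted above. The head subunits Atp5a1 and Atp5b rose by 0.25 ± 0.06, adjusted p = 0.00806, and by 0.20 ± 0.07, adjusted p = 0.0312, and the c ring gene Atp5g3 by 0.23 ± 0.07, adjusted p = 0.0169.

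Lists of genes around the chain also held calls, to be read beside 24.5% of all genes that rose and 24.8% that fell. Of 47 assembly factors tested 19 rose and 4 fell, of 23 import and outer membrane genes 9 rose and 0 fell, and of 19 TCA cycle genes 9 rose and 3 fell. Idh2, the mitochondrial NADP-dependent isocitrate dehydrogenase, rose by 1.05 ± 0.06 (adjusted p = 7.82e-07), and Pdhb, of pyruvate dehydrogenase, fell by 0.56 on the log2 scale (SE 0.06, adjusted p = 4.27e-05). Of 19 regulators of mitochondrial biogenesis 1 rose and 6 fell, a share of falls not far above that of all genes. Ppargc1b, a coactivator of respiratory genes, had a log2 fold change of -0.85 ± 0.11 (adjusted p = 0.00011), and Nrf1, the factor of the letters searched above, one of -0.51 ± 0.07 (adjusted p = 0.000142), whereas Gabpa, an ETS factor, had 0.19 ± 0.05 (adjusted p = 0.00738). None of the 7 mitochondrial genome genes tested passed.

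Adipocyte and muscle markers moved with this comparison. Summed adipocyte markers ran from 14730 to 17492 CPM on Chow and from 25421 to 28789 on HFD, with 9 of 12 rising and 0 falling. Summed muscle markers ran from 80.98 to 5090 CPM on Chow and from 47.33 to 80.39 on HFD, and 11 of 12 tested fell. Of 9 mammary epithelium markers tested 9 fell, and of 10 macrophage markers 5 rose and 1 fell. The part of adipocyte, epithelial and macrophage RNA in the result was not tested. Without the 3 Chow libraries rich in muscle markers, 1 Chow library was left, assumed to vary like the HFD libraries. Then 13 genes rose and 0 fell, 16.8% of all genes were called, and the median was 0.22. Ndufb3 (0.61, adjusted p = 0.0103), Cox8a, Cox6a1, Ndufa3, Ndufa4, Atp5o, Ndufb4, Ndufc2 and Ndufv1 were still called, whereas the calls of the other 9 named genes were lost, Cox4i1 at 0.26 (adjusted p = 0.0781). Of the 18 genes named here 13 were called whichever library was left out. Calls were lost for Ndufb2 without Chow replicate 2, 3 or 4 or HFD replicate 1, 3 or 4, and for Uqcrfs1 without Chow replicate 1, 3 or 4 or HFD replicate 1, 2 or 3. The same held for Atp5b without Chow replicate 3 or 4 or HFD replicate 1 or 2, for Ndufv1 without Chow replicate 3 or HFD replicate 1 or 3, and for Atp5g3 without Chow replicate 3; the adjusted p was at most 0.102.

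**Figure D4:**
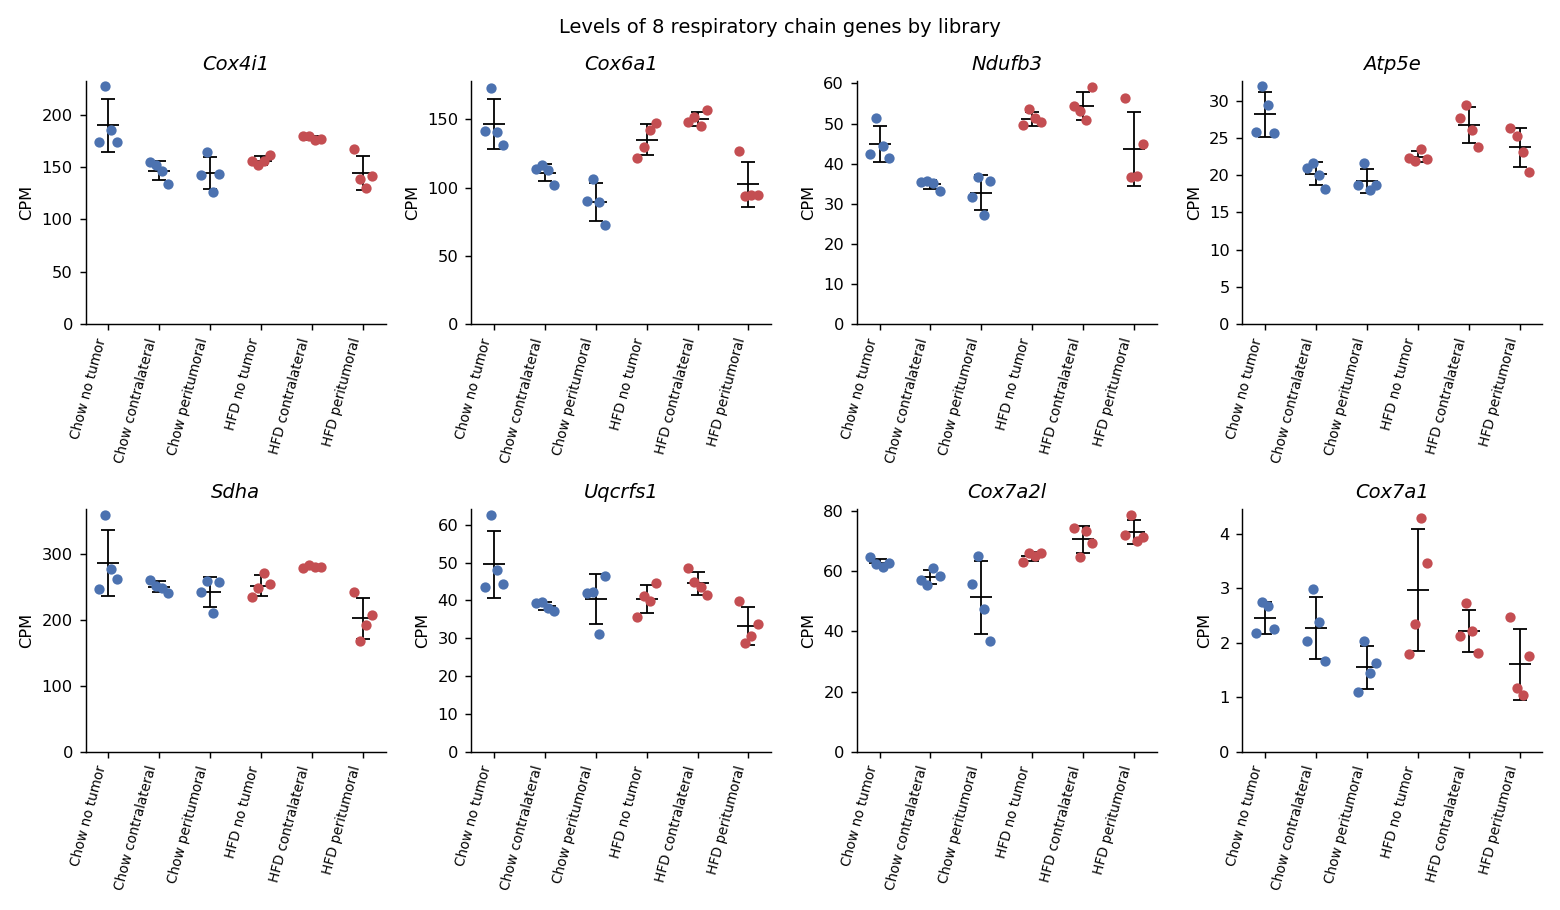
CPM of 8 respiratory chain genes in each library (points; blue Chow, red HFD), with the group mean and 1 SD, n = 4. In Cox4i1, Cox6a1, Ndufb3 and Atp5e the HFD contralateral libraries all lie above the Chow contralateral libraries, whereas the 6 groups of Cox7a1 overlap around 1 to 4 CPM.

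Next to the tumor few respiratory chain genes differed between diets. Of 76 genes tested 2 rose on HFD and 1 fell, beside 16.4% of all genes that rose and 17.2% that fell (33.6% in either direction). The median was -0.003 over the members and 0.02 over all genes. In 4 of the 76 genes the libraries of the diets did not overlap, beside 33.9% of all genes. Ndufa8, an accessory subunit of complex I, had 24.9, 30.3, 25.2 and 29.2 CPM on Chow and 36.5, 36.9, 33.2 and 37.5 on HFD (0.32 ± 0.10, adjusted p = 0.033), with no overlap. Cox7a2l had 55.8, 65.2, 47.5 and 36.9 CPM on Chow and 72.2, 78.7, 70.1 and 71.3 CPM on HFD (0.43 ± 0.15, adjusted p = 0.0447), also without overlap, and its Chow libraries were spread widely. Ndufb2 had 16, 16.5, 14.2 and 15.9 CPM on Chow and 14.7, 12.8, 11.4 and 11.9 CPM on HFD, with the highest HFD library above the lowest Chow one (-0.37 ± 0.12, adjusted p = 0.0406). Macrophage markers rose in 7 of 10 and fell in 0, while 1 of 12 adipocyte markers, Pparg, fell. Of 9 mammary epithelium markers 6 fell and 0 rose, of 6 thermogenic fat markers 3 fell and 0 rose, and of 19 TCA cycle genes 5 fell and 1 rose. The part of cell makeup in the result was not tested. The count of 3 was unstable: it was 0 without Chow peritumoral replicate 1 and without HFD peritumoral replicate 2 or 4, 1 without HFD replicate 3, 6 without Chow replicate 3 and 7 without HFD replicate 1. None of the 3 calls held whichever library was left out: Ndufa8 was lost in 5 of the 8 omissions, Ndufb2 in 6 and Cox7a2l in 7.

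Peritumoral and contralateral fat were compared within each diet; whether the diets differ in this was tested by the interaction at the end. On Chow no gene of the whole table passed edgeR's test between peritumoral and contralateral fat, that is 0% of all genes, and 0 of the 76 members. With an unadjusted p under 0.05 there were 5 members and 1381 genes, and DESeq2 called 0 members and 19 genes. The median was -0.07 over the members, with 58 of 76 below 0, and -0.01 over all genes. It was -0.125 without Chow peritumoral replicate 2 and -0.042 without replicate 3.

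On HFD 20 of 76 members fell in peritumoral fat and 0 rose, beside 12.7% of all genes that fell and 16.8% that rose (29.5% in either direction). The median was -0.26 over the members and -0.02 over all genes, and 69 of 76 lay below 0. The genes that fell were 9 of 36 in complex I, 3 of 4 in complex II, 3 of 8 in complex III, 4 of 12 in complex IV and 1 of 16 in the ATP synthase. In 18 of the 76 genes the positions did not overlap, beside 31.3% of all genes.

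Sdha, the flavoprotein of complex II that also serves the TCA cycle, had 279, 284, 281 and 281 CPM in contralateral and 242, 168, 193 and 207 CPM in peritumoral fat. All peritumoral libraries lay below, replicate 1 the least so, and the log2 fold change was -0.48 ± 0.11 (adjusted p = 0.0127). Sdhb fell with it (-0.36 ± 0.11, adjusted p = 0.0395). In complex I, Ndufv1 had 71.7, 69.8, 70.2 and 66.1 CPM in contralateral and 61.5, 48.9, 47.5 and 48.03 CPM in peritumoral fat (-0.44 ± 0.10, adjusted p = 0.0103), with no overlap. Ndufb9 and Ndufb8, of the membrane arm, changed by -0.41 ± 0.09, adjusted p = 0.0107, and by -0.38 ± 0.09, adjusted p = 0.0169. In complex III, Uqcr11 had 51.7, 55.1, 51.3 and 47.6 CPM in contralateral and 43.1, 36.7, 31.7 and 28.9 CPM in peritumoral fat (-0.56 ± 0.12, adjusted p = 0.011). Uqcrfs1 and Uqcrc1 changed by -0.43 ± 0.11, adjusted p = 0.0181, and by -0.28 ± 0.09, adjusted p = 0.0454. All 3 fell.

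Complex IV showed the largest fall among these genes, in Cox5b, with 47.6, 46.3, 48.6 and 36.8 CPM in contralateral and 37.6, 26.98, 23.4 and 27.7 in peritumoral fat (-0.64 ± 0.15, adjusted p = 0.0138), although 1 library of each position overlapped. Cox6a1 had 148, 152, 145 and 157 CPM in contralateral and 127, 93.7, 94.4 and 94.2 CPM in peritumoral fat (-0.57 ± 0.11, adjusted p = 0.00713). Cox8a had 156, 155, 153 and 149 CPM in contralateral and 133, 89.6, 97.7 and 98.1 CPM in peritumoral fat (-0.56 ± 0.12, adjusted p = 0.00976). In both, peritumoral replicate 1 lay well above the other 3 and still below every contralateral library. Cox4i1 fell as well (-0.31 ± 0.09, adjusted p = 0.0271). Atp5b was the only ATP synthase gene called lower, from 767 ± 28.3 to 607 ± 65.5 CPM (-0.35 ± 0.10, adjusted p = 0.0327). Of the 16 ATP synthase genes tested 14 lay below 0, with a median of -0.22.

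Of 19 TCA cycle genes 13 fell in the same comparison and 0 rose. Pcx, pyruvate carboxylase, which supplies oxaloacetate to the cycle, fell by 0.91 on the log2 scale (SE 0.18, adjusted p = 0.00805). Ppargc1a, a coactivator of mitochondrial biogenesis, changed by -1.02 ± 0.22 (adjusted p = 0.0102). Of 47 assembly factors 4 fell and 0 rose. Of 12 adipocyte markers 10 fell and 0 rose, and of 10 macrophage markers 9 rose; summed adipocyte markers ran from 25421 to 28789 CPM in contralateral and from 12258 to 22333 in peritumoral fat, and summed macrophage markers from 1538 to 1901 and from 2777 to 3933. The part of these cell types in the result was not tested. The library with the highest adipocyte sum near the tumor, HFD peritumoral replicate 1, was also the highest in the respiratory chain genes, and without it 52 of the members were called. The count was 8 without HFD contralateral replicate 1 or 3, 9 without replicate 2 and 12 without replicate 4; it was 10 without HFD peritumoral replicate 3 and 8 without replicate 4. Cox6a1, Cox8a, Ndufv1, Ndufb9, Uqcr11, Sdha and Cox5b were called whichever library was left out. Ndufb8 lost its call without HFD contralateral replicate 3 or peritumoral replicate 4, and Uqcrfs1 without contralateral replicate 1 or 2. Cox4i1, Atp5b and Sdhb lost theirs in 6 of 8 omissions each and Uqcrc1 in 7, with adjusted p up to 0.12.

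Fat away from a tumor was compared with fat of mice without one. On Chow 19 of 76 members fell and 0 rose, beside 3.02% of all genes that fell and 4.93% that rose (7.95% in either direction). The median was -0.31 over the members and -0.01 over all genes, with 73 of 76 members below 0. The genes that fell were 11 of 36 in complex I, 1 of 4 in complex II, 0 of 8 in complex III, 4 of 12 in complex IV and 3 of 16 in the ATP synthase. In 44 of the 76 genes the 2 groups did not overlap, beside 18.5% of all genes.

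Ndufa1 had the lowest adjusted p, with 28.6, 30, 29.5 and 29.5 CPM without a tumor and 21.3, 23.1, 19.7 and 17.1 in contralateral fat (-0.52 ± 0.09, adjusted p = 0.00998). Ndufc2 had 35.1, 39.9, 33.4 and 36.5 CPM without a tumor and 28.6, 27.7, 27.3 and 25.9 CPM in contralateral fat (-0.39 ± 0.07, adjusted p = 0.013). Atp5e had 25.8, 31.97, 29.4 and 25.7 CPM without a tumor and 20.9, 21.7, 20.1 and 18.1 CPM in contralateral fat (-0.47 ± 0.09, adjusted p = 0.0168). In all 3 every contralateral library lay below every no-tumor library. Of the other accessory subunits of complex I, Ndufb3 changed by -0.35 ± 0.07, adjusted p = 0.0225, Ndufa2 by -0.48 ± 0.10, adjusted p = 0.0237, and Ndufa13 by -0.31 ± 0.07, adjusted p = 0.0245. In complex IV, Cox6a1 changed by -0.39 ± 0.08, adjusted p = 0.0252, Cox6c by -0.43 ± 0.10, adjusted p = 0.0282, Cox4i1 by -0.36 ± 0.09, adjusted p = 0.0374, and Cox7a2 by -0.36 ± 0.10, adjusted p = 0.044. All of these fell. Of 47 assembly factors 2 fell, of 19 TCA cycle genes 0 passed, and of 12 adipocyte markers 0 passed. Summed muscle markers ran from 17.38 to 1125 CPM without a tumor and from 80.98 to 5090 CPM in contralateral fat, and 0 of 12 tested passed. Of 8 endothelial markers 4 rose and 0 fell. The part of these cell types in the result was not tested.

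This count of 19 rests on few libraries. It was 6, 7, 3 and 3 without Chow contralateral replicate 1, 2, 3 and 4, and 11, 23, 2 and 9 without Chow no tumor replicate 1, 2, 3 and 4. The median was -0.208 without Chow no tumor replicate 2. Without the 4 libraries rich in muscle markers, which left 1 contralateral library, 0 members and 14 genes in all passed edgeR's test (7 members and 1200 genes at an unadjusted p under 0.05; DESeq2 was not run on this subset), while the median was -0.36 and 73 of 76 members still lay below 0. Ndufa1 then stood at -0.58 (adjusted p = 0.452). Ndufa1 and Ndufc2 were called whichever single library was left out. Atp5e lost its call without Chow no tumor replicate 3 (adjusted p = 0.0524), Ndufa13 in 3 of 8 omissions, Ndufb3, Ndufa2 and Cox6a1 in 4 each, Cox6c in 5, Cox4i1 in 6 and Cox7a2 in 7.

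On HFD the same positions differed in a single member. Cox4i1 had 155, 151, 156 and 161 CPM without a tumor and 179, 179.9, 176 and 177 in contralateral fat, with no overlap, and rose by 0.18 ± 0.05, adjusted p = 0.0363. The 1 gene called of 76 stands beside 6.08% of all genes (2.72% higher, 3.37% lower). The median was 0.08 over the members and 0.01 over all genes, and 61 of 76 members lay above 0. The call was lost without HFD contralateral replicate 1, 2 or 3 or any 1 of the 4 HFD no-tumor libraries (adjusted p up to 0.112), and without HFD contralateral replicate 4 there were 4 members called. Of 12 adipocyte markers 4 rose in this comparison, of 10 macrophage markers 5 rose, and of 9 mammary epithelium markers 4 fell, with no call in the other direction in these lists.

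The difference between diet effects at 2 positions was tested directly, on the same libraries as the comparisons above, so it adds no independent samples. For contralateral against no-tumor fat, 44 of 76 members had a diet effect that was higher in contralateral fat and 0 one that was lower, beside 9.94% of all genes in each direction (19.9% in either direction). The median of the log2 differences was 0.40 over the members and 0.01 over all genes, and 72 of 76 lay above 0. The genes called were 24 of 36 in complex I, 2 of 4 in complex II, 6 of 8 in complex III, 8 of 12 in complex IV and 4 of 16 in the ATP synthase.

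Atp5e showed the largest difference, 0.73 ± 0.12 (adjusted p = 0.000827): without a tumor all HFD libraries were lower than all Chow libraries, and in contralateral fat all were higher. Atp5j2, the f subunit of the membrane part, had 0.69 ± 0.14, adjusted p = 0.00323. In complex I the differences were 0.51 ± 0.09, adjusted p = 0.00159 for Ndufc2, 0.46 ± 0.08, adjusted p = 0.00177 for Ndufa13, 0.52 ± 0.10, adjusted p = 0.00259 for Ndufa3, and 0.58 ± 0.11, adjusted p = 0.00313 for Ndufa1. In complex II, Sdhb had 0.46 ± 0.13, adjusted p = 0.023. The log2 diet effects behind it were -0.42 ± 0.11 without a tumor and 0.03 ± 0.07 in contralateral fat for Sdhb, and -0.15 ± 0.07 and 0.35 ± 0.06 for Ndufc2. In complex III the difference was 0.50 ± 0.14, adjusted p = 0.0155 for Uqcrfs1, and 0.39 ± 0.13, adjusted p = 0.0375 for Uqcrc1. In complex IV it was 0.56 ± 0.10, adjusted p = 0.00202 for Cox4i1, and 0.55 ± 0.11, adjusted p = 0.00336 for Cox6a1. Cox7a2 had 0.44 ± 0.12, adjusted p = 0.0186, and Cox7a2l the smallest of those named, 0.23 ± 0.07, adjusted p = 0.0354.

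**Figure D5:**
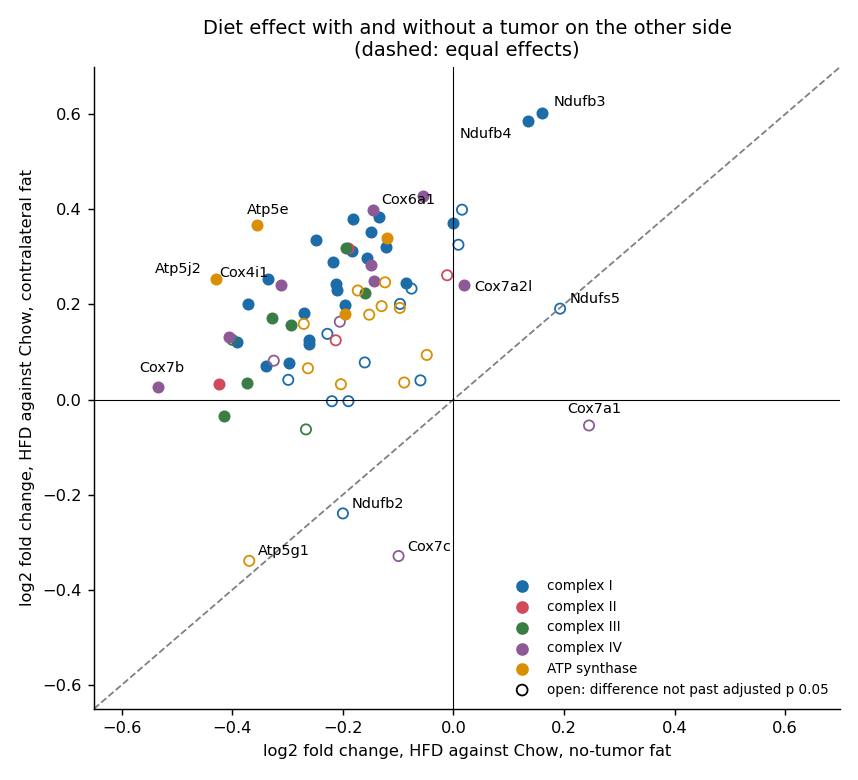
Log2 fold change of HFD against Chow in no-tumor fat (x) and in contralateral fat (y) for 74 genes, coloured by complex and filled where the difference between them passed an adjusted p of 0.05. Most points lie left of 0 and above 0, all filled points lie above the dashed line of equal effects, and Cox7a1, Atp5g1, Ndufb2, Ndufs5 and Cox7c are open and lie near or below it.

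Other genes moved with the same interaction. Of 12 adipocyte markers 6 had a higher diet effect in contralateral fat and 0 a lower one, Adipoq by 0.63 ± 0.12 (adjusted p = 0.00248). Of 23 import and outer membrane genes 7 did, of 8 mitochondrial genome genes tested 3, and of 19 TCA cycle genes 3, with 0 lower in each list. Of 10 macrophage markers 7 were higher, and of 8 endothelial markers 6 were lower. The part of cell makeup was not tested. The count of 44 was 29 and 24 without Chow contralateral replicate 3 and 4, 27 without HFD contralateral replicate 1, and 23, 28 and 29 without HFD no tumor replicate 1, 2 and 3. Without the 4 libraries rich in muscle markers 1 Chow contralateral library was left, too few to judge the calls. The median was then 0.46 over the members, with 72 of 76 above 0. Of the 13 genes named here 9 were called whichever single library was left out. Sdhb lost its call without Chow contralateral replicate 3 or 4, HFD contralateral replicate 1 or HFD no tumor replicate 1, and Cox7a2 without Chow contralateral replicate 4 or HFD no tumor replicate 1. Uqcrc1 lost it in 10 and Cox7a2l in 12 of 16 omissions.

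For peritumoral against contralateral fat the diet effects did not differ past the threshold in any gene of the table, that is in 0% of all genes and 0 of 76 members, by edgeR's test. With an unadjusted p under 0.05 there were 8 members and 3349 genes, and DESeq2 called 2 members and 727 genes. The median difference was -0.14 over the members, with 64 of 76 below 0, and 0.02 over all genes. Without HFD peritumoral replicate 1 the count was 5 members and the median -0.243; without Chow peritumoral replicate 2 the median was -0.076.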

How the data were processed

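The authors deposited whole-number read counts per gene for 24 libraries, and these counts are the unit analysed. The submitters' processing notes name TopHat, DESeq and the build mm10; the counter, its strand setting and the versions are not given in the sources used here. Symbols came from a gene name table that matched 37607 of 39017 gene IDs; the 1410 others held 0.15 to 0.21% of counts. The members and lists were chosen with earlier results of these data known.

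Each comparison was fitted on its own groups with edgeR 4.0.16 in R 4.3.3: its quasi-likelihood F test with robust dispersions, and TMM scaling. The function filterByExpr removed low genes (min.count 10, min.total.count 15). The Benjamini-Hochberg adjustment ran over all genes tested, with a threshold of 0.05. Interactions used 16 libraries. Adjusted p-values are from this test unless DESeq2 (1.42.0) is named. The SE of a log2 fold change is its size divided by the square root of F. CPM used TMM factors over the 24 libraries, which held 9.13 to 18.2 M counts, with a pseudocount of 0.5 in log2 means.

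In each comparison the text names up to 8 called members in each direction by lowest adjusted p, and 16 members fixed by role where called (otherwise by their levels); of other lists it names at most 4 genes. Results of 1 such member and 1 list gene are not reported here. The alternatives were DESeq2, its size factors (RLE), testing without the filter, requiring 1 CPM in 4 or more libraries instead, 1 fit of all 24 libraries, library sizes without mitochondrial genome genes and Gm42418, the replicate number as a block, and each library left out. Leaving out the libraries with over 1000 CPM of muscle markers was chosen after seeing the data. Promoter sequences are from RefSeq (GRCm38.p6), exon overlaps from the exon positions of the deposited table, and shared 50-base stretches from GENCODE M21 transcripts.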

Additional observations from a re-analysis of the deposited data

Results flagged for a closer look

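Of 132 groups of 4 libraries examined (each complex and the role-fixed genes in each condition), 10 held a library far from the other 3; chance alone gives about 1 in 20. Chow no tumor replicate 2 stood out in the mean log2 level of all 77 genes (5.619, others 5.227 to 5.288), of complex I (5.446, others 5.068 to 5.127), of the ATP synthase (5.264, others 4.921 to 4.966) and in Uqcrc1 (133.4 CPM, others 96.7 to 100.1). HFD peritumoral replicate 1 stood out in complex I (5.123, others 4.821 to 4.855) and in Ndufv1 (61.5 CPM, others 47.5 to 48.9). HFD no tumor replicate 1 was low in complex II (6.326, others 6.507 to 6.532) and in Cox5a (12.9 CPM, others 15.9 to 16.2). HFD no tumor replicate 4 was high in Ndufv1 (73.3 CPM, others 60.9 to 62.4), and HFD contralateral replicate 4 was low in complex IV (5.373, others 5.489 to 5.493).

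By edgeR's test of the interaction, the diet effect differed between contralateral and no-tumor fat in 44 genes, of which 13 are named, chosen because they passed this test. Without the libraries rich in muscle markers 1 Chow contralateral library was left, too few to judge the calls. The log2 differences of the 13 then ran from 0.17 for Cox7a2l to 0.72 for Atp5e. With all libraries they were 0.73 for Atp5e, 0.69 for Atp5j2, 0.58 for Ndufa1, 0.56 for Cox4i1, 0.55 for Cox6a1, 0.52 for Ndufa3, 0.51 for Ndufc2, 0.50 for Uqcrfs1, 0.46 for Ndufa13, 0.46 for Sdhb, 0.44 for Cox7a2, 0.39 for Uqcrc1 and 0.23 for Cox7a2l.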

How the results depend on the processing

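Counts of respiratory chain genes called moved by over 1.5 times in these settings, and the cause was not tested. With DESeq2 the diet effect in peritumoral fat had 5 genes (3 with edgeR) and the interaction of diet with tumor side 2 (0). With all 24 libraries in 1 fit, diet in peritumoral fat had 13, contralateral against no-tumor fat on HFD 0 (1), and diet by tumor bearing 23 (44). Without the libraries rich in muscle markers, which also leaves fewer samples, diet in contralateral fat had 13 (40), contralateral against no-tumor fat on Chow 0 (19) and diet by tumor bearing 2 (44). Leaving out 1 library at a time gave 7 to 16 genes for diet in no-tumor fat, 32 to 44 in contralateral fat and 0 to 7 in peritumoral fat, 8 to 52 for peritumoral against contralateral fat on HFD and 0 on Chow, 2 to 23 for tumor bearing (contralateral against no-tumor fat) on Chow and 0 to 4 on HFD, 0 to 5 for diet by tumor side and 23 to 49 for diet by tumor bearing. The median log2 fold change of diet in peritumoral fat, -0.003, changed sign without the low-count filter (0.032), with all 24 libraries in 1 fit (0.069), with the replicate block (0.001), without the muscle-rich library (0.076), and within a range of -0.081 to 0.076 when 1 library was left out. No call of a named gene changed direction: of 66, DESeq2 kept 65, RLE factors 66, no filter 62, the 1 CPM filter 64 and 1 fit of all libraries 55. Leaving out 1 library kept 494 of 632, and leaving out the muscle-rich libraries kept 21 of 52. Same-numbered contralateral and peritumoral libraries correlated in their deviations from the group means (11241 genes) at 0.113, 0.325, 0.002 and 0.021 on Chow and 0.004, 0.194, 0.372 and 0.502 on HFD, and not every library correlated best with its own number. The numbers were therefore not taken to pair samples, although this check cannot settle whether both positions came from the same mice. With the replicate block, peritumoral against contralateral fat on HFD had 32 genes (20), contralateral against no-tumor fat had 4 (19) on Chow and 0 (1) on HFD, and 55 of 66 named calls held. Depth limited Atp5g2, which had 3 to 11 counts per library.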
